A study of Mus musculus with 12 samples.

Results

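The Nrf2 pathway and small Maf genes were Nfe2l2, the gene of the transcription factor Nrf2, Keap1, the gene of its inhibitor, and Maff, Mafg and Mafk, the genes of the 3 small Maf proteins. They were taken by gene symbol from the 248 inflammation-related genes tested, and all 5 were present. The rule itself used no measured value, but the members were chosen with earlier results of these data known.

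Nrf2 is a basic leucine zipper (bZIP) factor that switches on genes of antioxidant defence and detoxification. In unstressed cells Keap1 holds Nrf2 for ubiquitination and destruction, and oxidants or electrophiles that modify Keap1 let newly made Nrf2 reach the nucleus. There it binds the antioxidant response element as a dimer with MafF, MafG or MafK, which have the DNA-binding zipper but no transactivation domain, so that small Maf dimers without Nrf2 can also repress. Control of Nrf2 acts mostly on the protein, and the mRNA levels given here are not a measure of Nrf2 activity.

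The samples were 6 pools of blood monocytes (MNC) and 6 pools of Kupffer cells (KC), the resident macrophages of the liver, from Balb/C mice. The labels name no treatment, genotype or age, and give 5 mice per pool and 100 ng of total RNA per reaction. Both cell types were sorted with beads against F4/80 and measured on the nCounter Mouse Inflammation V2 panel, where colour-coded probes bound to mRNA are counted without amplification. Livers were perfused and digested with collagenases before the sort and blood was separated on a gradient, so cell type and isolation cannot be told apart.

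The unit is the normalized count, the number of counted molecules times 1 factor per sample, which was 0.554 to 1.13 in monocytes against 1.30 to 2.17 in Kupffer cells. Samples held 162988 to 348248 counted molecules above the background in monocytes and 84401 to 145662 in Kupffer cells. On the panel 6 markers of Kupffer cells and macrophages were measured, and Cd163 and Mrc1 were higher in Kupffer cells while C1qa, C1qb and Tyrobp were higher in monocytes. The remaining one, Trem2, was at the background in all 6 Kupffer cell samples and in 4 of the 6 monocyte samples. Of the monocyte markers, Itgb2 and C3ar1 were higher in monocytes and Ccr2 was not called (adjusted p = 0.508 from limma). All 10 measured genes of proteins secreted by hepatocytes were higher in Kupffer cells, with sums of 4497 to 15348 normalized counts against 63.1 to 270.0 in monocytes, where 7 of the 10 were at the background in every sample. In such bulk samples, fewer cells of a type and less RNA per cell cannot be told apart.

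All 5 members were above the background in all 12 samples, the lowest value standing at 2.50 times the background. Among the 5, 4 were higher in Kupffer cells than in monocytes: Mafg by 5.62-fold, Nfe2l2 by 2.68-fold, Keap1 by 2.02-fold and Maff by 1.32-fold. Mafk was the exception, with 230.4 ± 36.1 normalized counts in monocytes against 202 ± 9.53 in Kupffer cells (mean ± SD over 6 samples). The call is an adjusted p under 0.05 from limma, fitted to log2 of the normalized count plus 1 and adjusted by Benjamini-Hochberg over all genes tested. By it 56.5% of the 248 genes differed, 35.1% being higher in Kupffer cells and 21.4% lower. This balance depended on the processing: 87 genes were called higher and 53 lower, but 68 and 108 with samples rescaled to the median gene, and 86 and 86 without monocyte replicate 2. The median log2 difference (Kupffer cells over monocytes) was 1.01 over the members and 0.048 over all genes tested. In 3 of the 5 members (Mafg, Nfe2l2 and Keap1) every Kupffer cell sample was above every monocyte sample, a pattern shown by 25.8% of all genes tested. Another 15.7% lay wholly lower, which makes 41.5% without overlap.

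**Figure D1:**
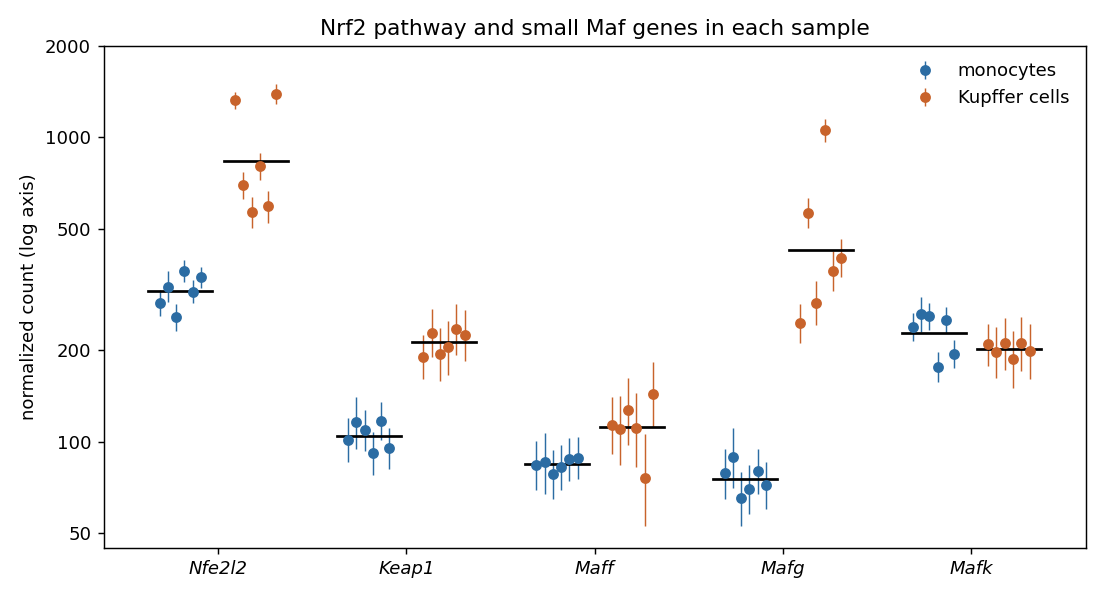
Normalized counts (log axis) of the 5 genes in each of 6 monocyte and 6 Kupffer cell samples, in order of replicate number within a group. Bars on the points are 95% exact Poisson intervals of the counted molecules, and black lines are geometric means; Nfe2l2, Keap1 and Mafg show no overlap between the cell types, Maff and Mafk do.

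The sequences upstream of the members' transcription starts are shown because Nrf2 and small Maf dimers are known to bind the antioxidant response element and small Maf genes are known to be under its control. RefSeq windows (GRCm38.p6) of 300 bases, 250 before and 50 after a start, were searched on both strands for the core of that element, TGACNNNGC. It was found in 4 of the 7 windows of the 5 genes, 1 each of Nfe2l2, Mafg, Mafk and Maff, which has 3 windows, and in 12.4% of all 32851 windows. The cyclic AMP response element TGACGTCA was found in another Maff window and in 1.79% of all windows. Each is given 5′ to 3′ along the gene, with up to 25 bases to either side and none past the start. Capitals mark the match, which in Mafg and Mafk reads on the opposite strand.
Nfe2l2 (chr2:75704870-75704913, minus strand): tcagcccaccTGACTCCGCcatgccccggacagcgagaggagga
Mafg (chr11:120633736-120633794, minus strand): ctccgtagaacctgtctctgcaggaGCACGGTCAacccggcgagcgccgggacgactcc
Mafk (chr5:139791498-139791535, plus strand): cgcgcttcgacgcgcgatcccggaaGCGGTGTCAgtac
Maff, antioxidant response element core (chr15:79346484-79346542, plus strand): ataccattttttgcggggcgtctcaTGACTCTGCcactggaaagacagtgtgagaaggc
Maff, cyclic AMP response element (chr15:79347466-79347519, plus strand): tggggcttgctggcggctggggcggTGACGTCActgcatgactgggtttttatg

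The matches began 240 bases before the start in Nfe2l2, 222 in Mafg, 13 in Mafk and 112 in Maff, and the cyclic AMP response element 29 bases before another start of Maff. In Mafg this start lies inside the gene, whose annotated 5′ end is at chr11:120634955. The sequence before that end was not searched. No core match was found in the window of Keap1. The looser form TGANNNNGC, which includes every core match, was in 5 of the 7 windows and in 41.3% of all windows. The AP-1 site TGANTCA was in none of the 7 (7.81% of all), TGCTGA, a part of the Maf recognition element, in 1 (19.5% of all) and the E-box CACGTG in 3 (7.15% of all). A match is a run of letters and not a shown binding site, and elements outside these windows were not searched.

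Nfe2l2 had 257 normalized counts in the lowest monocyte sample, a median of 317 and 364 in the highest. In Kupffer cells the lowest sample had 567, the median was 751 and the highest sample had 1389. The groups were apart, but the Kupffer cell samples fell into a pair at the top, replicate 1 with 1326 and replicate 6 with 1389, and the other four between 567 and 805. The log2 difference was 1.42 (standard error 0.23, adjusted p = 0.000139 from limma). Without Kupffer cell replicates 1 and 6 together, a choice made after seeing the data, it was 1.07 (adjusted p = 8.66e-05). These replicates also had the highest Gapdh of the series, 4159 and 4084 normalized counts against 2159 to 2741 in the other Kupffer cell samples, and the lowest Gusb, 244 and 258 against 331 to 409. Gapdh and Gusb are housekeeping genes that entered the normalization. Each of the 4 housekeeping genes listed lay apart between the cell types without overlap. Gapdh had 2159 to 4159 normalized counts in Kupffer cells against 1631 to 1767 in monocytes, and Cltc 2505 to 3044 against 1982 to 2328. In the same order Pgk1 had 206 to 386 against 132 to 176, while Gusb was lower, with 244 to 409 against 764 to 1178. Scaling without Gapdh, to the geometric mean of Cltc, Gusb and Pgk1, gave Nfe2l2 a log2 difference of 1.52 (adjusted p = 7.95e-05 from limma). The paper also names Hprt and Tubb5 as normalization genes. They are not among those listed, so this scaling leaves them out as well and does not show the effect of Gapdh alone.

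Keap1, the adaptor that brings Nrf2 to a cullin ubiquitin ligase, had 91.8 normalized counts in the lowest monocyte sample, a median of 105 and 117 in the highest. The Kupffer cell samples had 190.5 at the lowest, a median of 214 and 235 at the highest. All Kupffer cell samples lay close together and well above the monocyte samples, with a log2 difference of 1.01 (standard error 0.12, adjusted p = 5.14e-06 from limma). Both Keap1 and the gene of the factor it restrains were higher in Kupffer cells. Within one sample, the ratio of Nfe2l2 to Keap1 was 2.34 to 3.93 in monocytes against 2.52 to 6.93 in Kupffer cells, with overlap. The change of this ratio, 0.41 on the log2 scale (standard error 0.27), was within the spread between samples (p = 0.182, exact two-sided permutation test over all assignments of the samples to the cell types). Without Kupffer cell replicates 1 and 6 it was 0.043.

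Mafg differed most among the 5. It had 65.3 normalized counts in the lowest monocyte sample, a median of 75.3 and 88.9 in the highest. In Kupffer cells it had 245 in the lowest sample (replicate 1), a median of 383 and 1056 in the highest (replicate 4). The monocyte samples were alike, and the Kupffer cell samples were all higher and 4.31-fold apart. The log2 difference was 2.49 (standard error 0.29, adjusted p = 6.37e-06 from limma), and it was 2.23 without Kupffer cell replicate 4. The 1056 of that replicate came from 497 counted molecules, with a 95% exact Poisson interval of 965 to 1153, so that its distance to the next sample (565, interval 503 to 631) exceeded the counting error. Such intervals cover counting error only.

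Maff, the small Maf gene known as inducible by cytokines and stress, had 78.1 normalized counts in the lowest monocyte sample, a median of 84.6 and 88.6 in the highest. In Kupffer cells these were 76.1, 112 and 144. In Kupffer cells 5 samples were above all monocyte samples and 1, replicate 5, was below all of them. That sample rests on 35 counted molecules, with an exact Poisson interval of 53.0 to 106 that covers the whole monocyte range. The log2 difference was 0.40 (standard error 0.15, adjusted p = 0.0307 from limma). This call was not stable: it was lost without any 1 of monocyte replicates 1, 3 and 4 or Kupffer cell replicates 3 and 6 (adjusted p up to 0.0702), and quantile normalization turned the difference to -0.086 (adjusted p = 0.7), while leaving out Kupffer cell replicate 5 gave 0.51 (adjusted p = 0.0033).

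Mafk encodes the small Maf also known as a subunit of NF-E2 in blood cells. It had 176 normalized counts in the lowest monocyte sample, a median of 245 and 262 in the highest. The Kupffer cell samples had 187, 204 and 211. They all lay within the range of the monocyte samples. The log2 difference of -0.17 (95% interval -0.45 to 0.10, adjusted p = 0.243 from limma) did not exceed the spread between samples, which does not show that the levels are equal. With each sample rescaled to its median gene, or after quantile normalization, Mafk was called lower in Kupffer cells (log2 differences of -0.43 and -0.53, adjusted p = 0.0166 and 0.00601). Its log2 SD among Kupffer cell samples was 0.069, and 1 of the 160 genes above the background in all samples had a smaller one. The counting interval of a single such sample was wider, as in replicate 4 (187 normalized counts, 95% exact Poisson interval 150.0 to 230.4).

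**Figure D2:**
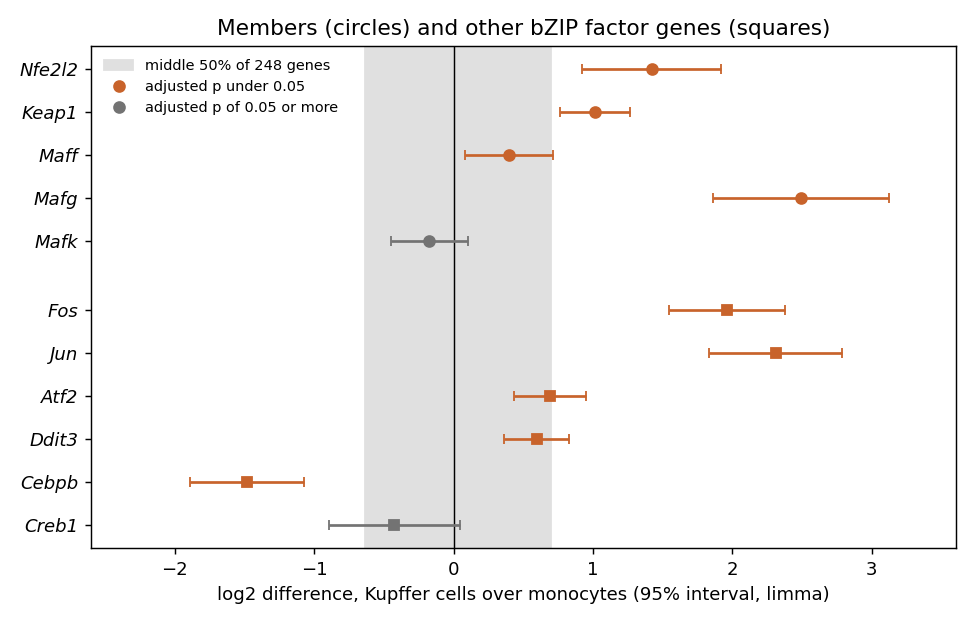
Log2 difference between Kupffer cells and monocytes with its 95% interval from limma, for the 5 members (circles) and 6 other bZIP factor genes (squares); the grey band holds the middle 50% of the 248 genes. Mafg, Nfe2l2 and Keap1 lie to the right of the band with their whole intervals, and the points of Maff and Mafk lie within it.

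**Figure D3:**
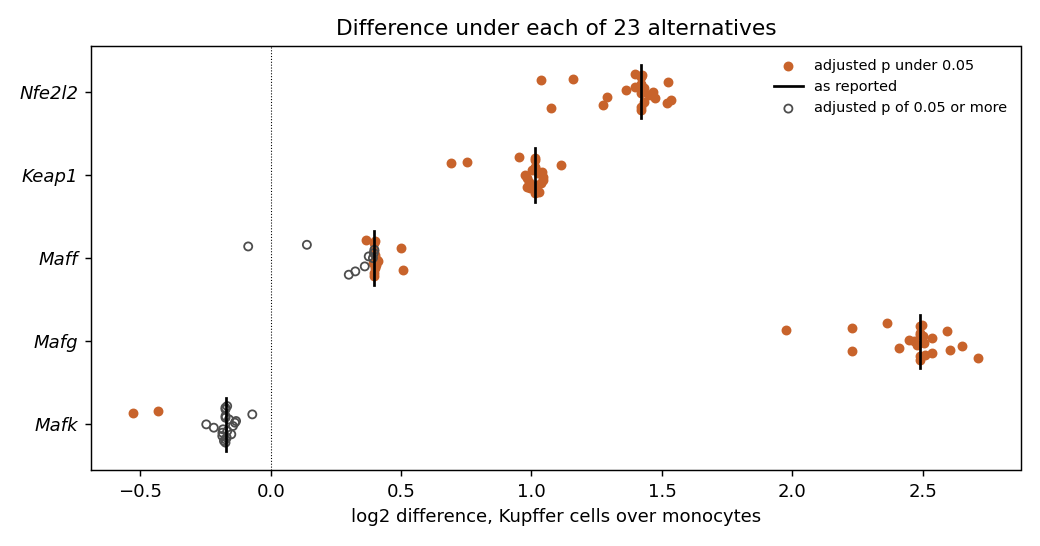
Log2 difference between Kupffer cells and monocytes of each member under 23 alternatives of processing, test or samples (points) and as reported (black line). Nfe2l2, Keap1 and Mafg stay called on the same side of 0 in all 23, Maff loses its call in 9 and crosses 0 in one of these, and Mafk is called lower in 2.

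The ratio of any 2 members in one sample does not depend on the factor of that sample, so the 10 ratios test whether the genes changed unequally. Probes may differ in efficiency, and for that reason only the change of a ratio between the cell types is read. In 9 of 10 ratios the exact two-sided permutation test gave an adjusted p under 0.05 (Benjamini-Hochberg over the 10), and in 7 of them Kupffer cells and monocytes lay apart without overlap. The smallest p that the permutation test can give is 0.00216, which corresponds to an adjusted p of 0.00309 here. Each member enters several of the 10 ratios, so these are not independent results. Ratios between other genes of the panel were not tested. The counts therefore do not show that the members changed more unequally than other genes.

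The small Maf genes diverged from each other. The ratio of Mafg to Mafk was 0.255 to 0.400 in monocytes against 1.17 to 5.62 in Kupffer cells, a log2 change of 2.66 (standard error 0.35, exact permutation p = 0.00216). Every Kupffer cell sample was above every monocyte sample in this ratio. The ratio of Maff to Mafg fell by 2.09 on the log2 scale (standard error 0.34, exact permutation p = 0.00216), and that of Maff to Mafk rose by 0.57 (standard error 0.17, exact permutation p = 0.013) with an overlap between the groups. Apart from the pseudocount, such ratios do not move when a whole sample is rescaled, as to its median gene.

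Against Nfe2l2 and Keap1, the small Maf genes again went different ways. The ratio of Nfe2l2 to Mafk rose by 1.59 (standard error 0.29) and that of Nfe2l2 to Maff by 1.02 (standard error 0.21), each with exact permutation p = 0.00216 and no overlap. The ratio of Keap1 to Mafk was the steadiest, with 0.424 to 0.523 in monocytes against 0.913 to 1.16 in Kupffer cells, a log2 change of 1.18 (standard error 0.079). The ratio of Keap1 to Maff rose by 0.61 (standard error 0.17), and for both the exact permutation p was 0.00216. Mafg outran both: the ratio of Keap1 to Mafg fell by 1.48 (standard error 0.31, exact permutation p = 0.00216) and that of Nfe2l2 to Mafg by 1.07 (standard error 0.42, exact permutation p = 0.039). In the last of these, Kupffer cell replicate 1, at 5.39, was above all monocyte samples, which reached 5.15 at most, and the other five were below all of them. The adjusted p of 0.0433 from the permutation test rose above 0.05 without any 1 of monocyte replicates 1, 3, 4, 5 and 6 or Kupffer cell replicates 2, 3, 4 and 5, up to 0.0697.

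**Figure D4:**
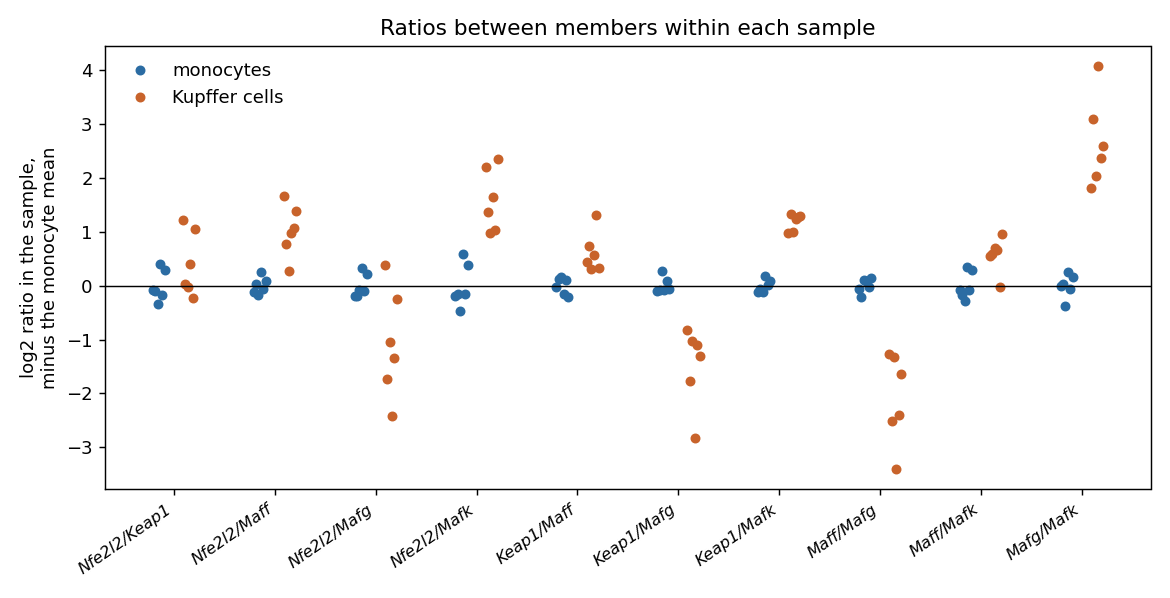
Log2 ratio of each pair of members within a sample, with the mean of the 6 monocyte samples subtracted, in monocyte and Kupffer cell samples (6 each). The points of the cell types are apart in 7 of the 10 pairs, and farthest in Mafg/Mafk, where the mean change is 2.66.

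Within each cell type the members differed in how much the samples varied. Among Kupffer cell samples the log2 SD was 0.76 in Mafg and 0.57 in Nfe2l2, against a median of 0.35 over the 160 genes above the background in all samples. It was 0.30 in Maff, 0.13 in Keap1 and 0.069 in Mafk. Of the 160 genes, 93.1% had a smaller SD than Mafg and 81.9% a smaller one than Nfe2l2. Among monocyte samples the log2 SD of the 5 ran from 0.065 in Maff to 0.24 in Mafk, where the median over genes was 0.22.

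The high samples of Mafg and Nfe2l2 in Kupffer cells were different ones. Mafg was highest in replicates 4 and 2, while Nfe2l2 was highest in replicates 6 and 1, and replicate 1 was the lowest in Mafg. In replicates 1 to 6 the hepatocyte genes summed to 4497, 15348, 8440, 11486, 11853 and 7523 normalized counts. Mafg had 245, 565, 286, 1056, 365 and 402 in the same order. The macrophage genes summed to 4212 and 4537 in replicates 1 and 6 and to 8446 and 7905 in replicates 2 and 4. The part of these differences in the levels of Mafg and Nfe2l2 was not tested.

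Among monocyte samples, replicates 4 and 6 stood apart in several of the genes. They had the lowest Mafk, 176 and 195 normalized counts against 239 to 262 in the other four, and the lowest Keap1, 91.8 and 95.2 against 101 to 117. They also had the highest Nfe2l2, 364 and 347 against 257 to 323. In the same replicates the 8 measured T and NK cell genes summed to 3948 and 3313 normalized counts against 5262 to 6024 in the other four, and the macrophage genes to 17209 and 18391 against 10749 to 13173. The part of T and NK cell genes in the levels of Mafk, Keap1 and Nfe2l2 was not tested. Between the cell types, the T and NK cell genes summed to 3313 to 6024 normalized counts in monocytes against 4141 to 7298 in Kupffer cells. Of the 8, 4 were called higher in Kupffer cells and none lower. Ltb and Ccr7 had the highest means of the 8 and were not called. Ifng, called higher, had 20.66 to 32.65 normalized counts in monocytes against 263 to 374 in Kupffer cells. Flt1, the endothelial marker measured, had 52.2 to 151 normalized counts in Kupffer cells and at most 27 in monocytes. Of the 3 neutrophil genes none was called higher in Kupffer cells. The 1 called lower, Cxcr1, was at the background in all 6 Kupffer cell samples and in 5 of the 6 monocyte samples, so that this call compares listed backgrounds and says nothing of its level.

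**Figure D5:**
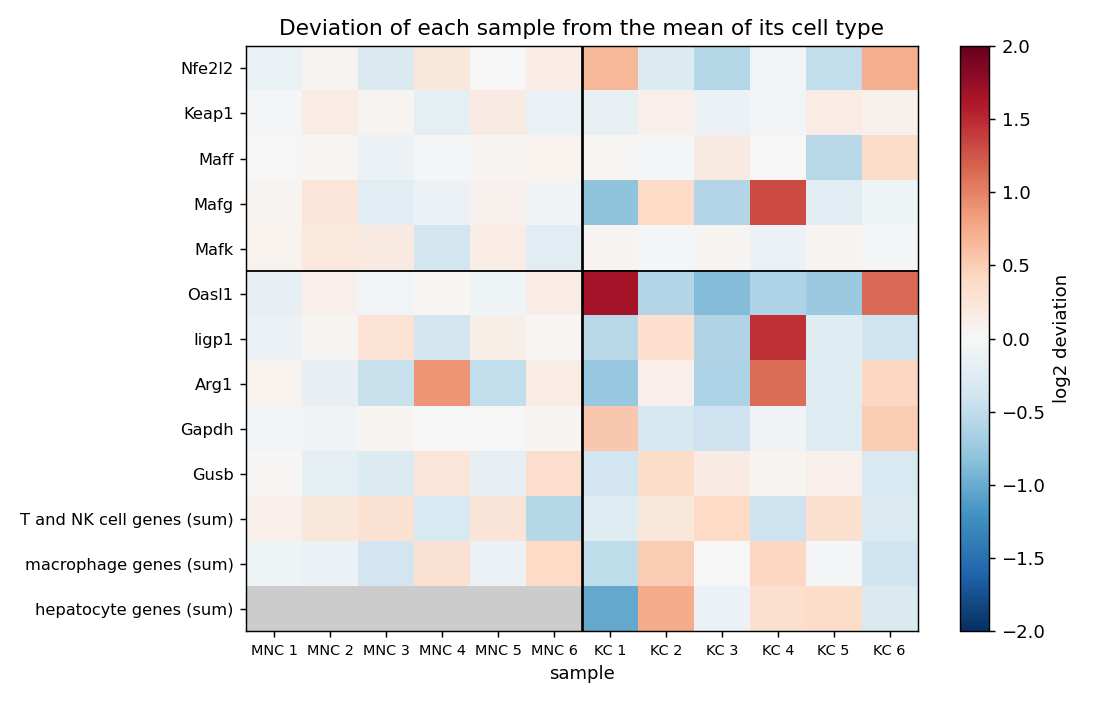
Log2 deviation of each sample from the mean of its cell type for the 5 members (above the line), for genes of similar pattern and housekeeping genes, and for the sums of 3 marker lists; the hepatocyte sum is not drawn for monocytes (grey), where most of its genes were at the background. Nfe2l2, Oasl1 and Gapdh are high in Kupffer cell replicates 1 and 6, and Mafg, Iigp1 and Arg1 in replicate 4.

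The genes most like each member were taken as those above the background in all samples whose log2 ratio to the member had the smallest SD over the 12 samples, a measure that does not depend on the scaling. For Mafg these were Iigp1 (SD 0.40), an interferon-induced GTPase, Arg1 (0.49), the arginase gene, and Ifit3 (0.61), an interferon-induced gene, where the median over 159 genes was 1.38. This SD takes in the difference between the cell types as well as that among samples of one type. In Kupffer cell replicate 4, Iigp1 stood at 2341 and Arg1 at 3259 normalized counts, each the highest of its group as Mafg was. Ifit3 had 567 there and was highest in replicate 1, with 672, where Mafg was lowest. For Nfe2l2 they were Oasl1 (SD 0.41), Ifi44 (0.42) and Irf1 (0.43), all interferon-responsive genes, with a median over genes of 0.92. Oasl1 had 1215 and 841 normalized counts in Kupffer cell replicates 1 and 6 and 210.5 to 256 in the other four. Its log2 difference between the cell types was 1.38 (adjusted p = 0.0103 from limma). Irf1 was also highest in Kupffer cell replicates 1 and 6, with 3005 and 2957 normalized counts. Ifi44 had 1365 in replicate 1 but 748 in replicate 6, against 678 to 1096 in the other Kupffer cell samples.

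Keap1 had closer companions. Its ratio to Shc1, a signalling adaptor, had an SD of 0.14 over the 12 samples, and those to Map3k7, the kinase TAK1, and Rapgef2, an exchange factor of Rap GTPases, 0.20 and 0.21 (median over genes 0.62). Mafk was most like the small GTPase gene Rac1 (SD 0.14), the ubiquitin ligase gene Birc2 (0.16) and the kinase gene Rock2 (0.17), with a median over genes of 0.51, and none of these 3 was called (adjusted p = 0.121, 0.94 and 0.583 from limma). With samples rescaled to the median gene, Rac1 and Rock2 were called lower in Kupffer cells, as Mafk was (-0.44 and -0.33, adjusted p = 0.00379 and 0.0265). Maff was most like Stat3 (SD 0.21), Gnb1 (0.23), a G protein subunit gene, and Ddit3 (0.23), the stress-induced bZIP gene, with a median over genes of 0.53. These are descriptions over 12 samples, in which every pair of genes shares its sample.

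Among the other bZIP factor genes, 6 of a list of 26 were measured, and 4 of them were called higher in Kupffer cells, 1 lower and 1 neither. Fos had 2969 to 5601 normalized counts in monocytes against 9835 to 19044 in Kupffer cells, a log2 difference of 1.96 (adjusted p = 1.07e-06 from limma). Jun, its partner in AP-1, had a log2 difference of 2.31 (adjusted p = 8.75e-07). Atf2, a factor that can pair with Jun, rose by 0.69 (adjusted p = 0.000237) and Ddit3 by 0.59 (adjusted p = 0.000326), which fell to 0.17 without a call after quantile normalization (adjusted p = 0.17). Cebpb, a factor of myeloid and inflammatory genes, was lower in Kupffer cells, with a log2 difference of -1.48 (adjusted p = 1.51e-05). Creb1 was at the background in 7 of the 12 samples, with 15.8 to 27 normalized counts in monocytes against 9 to 25.5 in Kupffer cells. It was not called (adjusted p = 0.102). It was called lower without Kupffer cell replicate 4 (-0.56, adjusted p = 0.0272) and with samples rescaled to the median gene (-0.67, adjusted p = 0.0149), and its direction turned where the background was raised to its multiplied value (0.040, adjusted p = 0.84).

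Fos, Jun and Ddit3 also stand in a list of 19 early-response genes known to be induced while cells are isolated, and 7 of the list were measured. There 4 were called higher in Kupffer cells (Fos, Jun, Ddit3 and Hspb1), 1 lower (Cebpb) and 2 neither (Myc and Hspb2, the latter at the background in all monocyte samples). The list summed to 15858 to 27992 normalized counts in Kupffer cells and 7705 to 12106 in monocytes. Among Kupffer cell samples, replicates 1 to 6, the sums were 19119, 25676, 27992, 15858, 24478 and 20259 normalized counts. In the same samples Mafg was highest in replicates 4 and 2, Nfe2l2 in replicates 6 and 1, and Maff in replicates 6 and 3. Keap1 was highest in replicates 5 and 2, and Mafk in replicates 5 and 3. The part of this response in the levels of the members was not tested.

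Of a list of 19 genes of Nrf2 targets and of Nrf2 and Keap1 turnover, 1 was measured here, Hspb1, a small heat shock protein gene. It had 31.6 to 49.5 normalized counts in monocytes against 43.9 to 113 in Kupffer cells, with an overlap (log2 difference 0.63, adjusted p = 0.0234 from limma; 0.0528 without monocyte replicate 6, and -0.22 with adjusted p = 0.423 after quantile normalization). Hmox1, Nqo1, Gclm and the other classical targets were not analysed here. Nrf2 is also known to blunt the induction of Il6 and Il1b in macrophages, but its part in their levels here was not tested. Il6 was lower in Kupffer cells, with 38.4 to 105 normalized counts against 149 to 425 in monocytes (log2 difference -1.99, adjusted p = 7.88e-05). Il1b had 537 to 1081 normalized counts in monocytes against 226 to 1104 in Kupffer cells and was not called (log2 difference -0.65, adjusted p = 0.12), though it was called lower without Kupffer cell replicate 2 (-0.92, adjusted p = 0.0169), with samples rescaled to the median gene (-0.91, adjusted p = 0.0226) and after quantile normalization (-0.97, adjusted p = 0.0381).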

How the data were processed

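Levels of mRNA were measured in 6 monocyte and 6 Kupffer cell samples, and groups and replicate numbers were taken from the sample titles. What was deposited is a signal, namely reporter counts normalized by the authors in nSolver with 1 factor per lane, from the geometric means of positive controls and housekeeping genes. The background was the highest of 8 negative controls in a lane. A gene under the background is listed at that count, not multiplied by the factor, so no count model was used. The labels give 5 mice per pool, while by the methods some pools may have been smaller. That the pools hold separate mice is not stated for each sample, so p-values measure the spread between these samples.

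Above the background, a lane's values were whole multiples (within 0.02) of 1 step, taken as its factor, and dividing by the factor gave the counted molecules. In R 4.3.3, limma 3.58.1 was fitted to log2(value + 1) of the 248 genes (moderated variances, two-sided, no covariate), and 4 housekeeping genes and the control probes were kept apart. The pseudocount of 1 makes log2 differences understate the change of low genes. The steps were tested on simulated data. Ratios between members were compared by exact permutation tests. The permutation tests and plots were made with scipy 1.17.1, numpy 2.4.6, matplotlib 3.10.9 and pandas 2.3.3 under Python 3.11.15. The 5 symbols matched RefSeq (GRCm38.p6) directly, and the build of the panel's probes is not given in the sources used here.

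The members and gene lists were chosen with earlier results of these data known. Named are the members, the 3 genes most like each, and the measured genes of the lists of bZIP factors, of Nrf2 targets and turnover, and of Il1b and Il6; others are named where a result turns on them. The alternatives changed the scaling, pseudocount, low-value filter, variance trend or test, added a replicate block or left out a sample. A background raised to its multiplied value where that is higher, and leaving out Kupffer cell replicates 1 and 6, were added after seeing the data.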

Additional observations from a re-analysis of the deposited data

Results flagged for a closer look

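In 56 groups of 6 samples (28 named genes in 2 cell types), 6 had a sample set off from the rest by a gap, relative to the range of the group, over Dixon's 95% critical value, which chance passes in about 1 of 20 groups; none was a group of Nfe2l2, Keap1, Maff, Mafg or Mafk. Iigp1, the gene most like Mafg, had 2341 normalized counts in Kupffer cell replicate 4, which was also the highest in Mafg. Arg1 had 350.6 in monocyte replicate 4, and Jun had 1755 in the same replicate. Il6 had 105 in Kupffer cell replicate 3. In Kupffer cell replicate 2, Ddit3 had 274, the lowest of its group, and Rac1 had 2076, the highest.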

How the results depend on the processing

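Nfe2l2, Keap1 and Mafg kept their direction and their call in all 23 alternatives, with log2 differences of 1.04 to 1.53, 0.69 to 1.11 and 1.98 to 2.71. Leaving out each sample in turn gave 1.28 to 1.53, 0.97 to 1.04 and 2.23 to 2.65. For Maff it gave 0.32 to 0.51 (adjusted p = 0.0033 to 0.0702), and the call was also lost with samples rescaled to the median gene (0.14, adjusted p = 0.452), with the replicate block (0.40, adjusted p = 0.0531), without Kupffer cell replicates 1 and 6 (0.30, adjusted p = 0.103) and after quantile normalization, which reversed it (-0.086). Mafk was called lower under the median (-0.43) and quantile (-0.53) scalings, which moved the median log2 difference of all genes by -0.26 and -0.10; scaling without Gapdh moved it by 0.10. Over the 160 genes above the background in all samples, Mafk among them, that median was 0.13 as reported, -0.13 under the median scaling and -0.19 under quantile normalization. Under the median scaling 68 genes were called higher and 108 lower, against 87 and 53 as reported, and under quantile normalization 63 and 69. Leaving out each sample gave 46 to 86 genes lower, the most without monocyte replicate 2, whose background was the lowest.

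The ratio of Nfe2l2 to Mafg changed by -0.97 (adjusted p = 0.0553) with a pseudocount of 10, and by -1.36 to -0.80 with each sample left out; the other 9 ratios kept their side of the threshold. Among other named genes, direction turned for Gnb1 (-0.042) and Birc2 (-0.25) under the median scaling, for Hspb1 (-0.22), Birc2 (-0.28) and Rac1 (0.012) under quantile normalization, for Rock2 without Gapdh (0.031), for Creb1 with the higher background (0.040), and for Birc2 with samples left out (-0.064 to 0.071). After quantile normalization Oasl1, Ddit3, Rapgef2 and Stat3 lost their calls (adjusted p = 0.0657, 0.17, 0.0713 and 0.0615), and Rock2 gained one (-0.41, adjusted p = 0.00371). Rac1 was called lower by the exact permutation test (adjusted p = 0.0138). Stat3 kept its call in 16 of 23 alternatives. The causes were not tested. Whether samples of the same number belong together is not stated, and correlations between them cannot decide it. Of 6 same-numbered pairs, 3 had deviations correlated over 0.1, and in 2 of 6 the own number correlated best. With the replicate block 132 genes were called, against 140. Depth limits Maff most, with 35 to 87 counted molecules per Kupffer cell sample.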
